A study of Mus musculus with 20 samples.

Results

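Genes of the hypoxia response and of glycolysis were followed through cultured mouse hippocampal neurons in which NMDA receptors had been blocked. They were Ndrg1, Egln3, Ankrd37, Vegfa, Slc2a1, Ldha, Pgk1, Hk2, Pfkfb3 and Bnip3. Their probes were taken by gene name from the scanner files, without control spots, which gave 16 probes for 10 genes of the 19344 genes tested. All 16 probes passed the filter on dim spots, which asked for a sample signal well above background on at least 5 of the 20 arrays. Of these, 14 were well above background on all 20 arrays, and the exceptions were a pair of dim Pfkfb3 probes.

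The cultures were dissociated hippocampal neurons kept for 21 days in vitro and then treated for 24 h. The groups were 100 µM AP5, a competitive antagonist of NMDA receptors, 100 nM NVP-AAM077, an antagonist that prefers a subset of these receptors, 1 µM of the compound labelled Ro25-4891, called Ro25 here, and vehicle as the control. Each group had 5 arrays. On every array the sample carried Cy5 and a universal mouse reference RNA carried Cy3, with no dye swap, so each value is a log2 ratio of a sample to the same reference, and a difference between groups is a difference of such ratios. Whether the 5 arrays of a group stand for 5 separate cultures is not given in the labels, so the p-values rest on a spread between samples that could be purely technical. The RNA was from whole cultures, in which fewer cells of a type and less RNA per cell cannot be told apart.

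Cells sense oxygen through prolyl hydroxylases of the Egln family, which mark the alpha subunits of hypoxia-inducible factor (HIF) for destruction while oxygen is present. When oxygen falls, HIF accumulates, binds short core motifs near its target genes and raises glucose uptake, glycolysis, lactate production and blood vessel growth factors. In brain cultures, astrocytes as well as neurons use this program, and lactate made by one cell type can be taken up by another.

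The core bases that HIF recognises were looked up in the RefSeq promoter windows (GRCm38.p6, 250 bases before to 50 bases after each gene start, 300 bases in all) as ACGTG or GCGTG on either strand. On the opposite strand these read CACGT and CACGC, and the run CACGTG counts once on each strand, as do the overlapping cores of CACGCGTG. Windows were found for 9 of the 10 genes, 12 windows in all, and Ndrg1 was named only. A core was found in 11 of the 12 windows, and each of the 9 genes had at least 1, whereas 43.8% of all 32851 windows held one. Base composition was not matched in this comparison, and a match is a run of letters and not a binding site. The windows of the oxygen sensor Egln3 and of Ankrd37, whose transcripts were called lower with AP5, and of the glycolytic genes Ldha and Pgk1, whose transcripts did not pass the test, are shown to let their cores be compared. The calls of Egln3 and Ankrd37 did not hold with slide as a fixed block, as described below. Cores are in capitals.
Egln3 (chr12:54203825-54204124, minus strand): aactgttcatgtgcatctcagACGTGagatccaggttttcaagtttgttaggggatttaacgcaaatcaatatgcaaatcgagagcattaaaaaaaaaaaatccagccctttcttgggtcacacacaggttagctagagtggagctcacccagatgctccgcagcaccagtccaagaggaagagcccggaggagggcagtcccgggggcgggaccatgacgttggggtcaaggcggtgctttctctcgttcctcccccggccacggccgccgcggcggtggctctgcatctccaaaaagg
Ankrd37 (chr8:45999801-46000100, minus strand): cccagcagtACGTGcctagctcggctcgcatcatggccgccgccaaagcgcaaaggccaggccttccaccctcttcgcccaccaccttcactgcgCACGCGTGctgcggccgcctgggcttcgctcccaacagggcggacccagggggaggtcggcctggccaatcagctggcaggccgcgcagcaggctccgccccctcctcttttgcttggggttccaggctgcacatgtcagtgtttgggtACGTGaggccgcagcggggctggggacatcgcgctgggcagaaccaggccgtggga
Ldha (chr7:46845554-46845853, plus strand): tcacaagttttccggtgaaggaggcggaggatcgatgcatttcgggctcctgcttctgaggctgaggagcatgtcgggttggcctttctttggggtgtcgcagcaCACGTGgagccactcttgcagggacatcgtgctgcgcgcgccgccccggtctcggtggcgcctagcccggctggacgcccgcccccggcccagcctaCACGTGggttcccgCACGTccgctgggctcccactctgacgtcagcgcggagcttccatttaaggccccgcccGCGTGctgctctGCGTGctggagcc
Pgk1 (chrX:106186850-106187149, plus strand): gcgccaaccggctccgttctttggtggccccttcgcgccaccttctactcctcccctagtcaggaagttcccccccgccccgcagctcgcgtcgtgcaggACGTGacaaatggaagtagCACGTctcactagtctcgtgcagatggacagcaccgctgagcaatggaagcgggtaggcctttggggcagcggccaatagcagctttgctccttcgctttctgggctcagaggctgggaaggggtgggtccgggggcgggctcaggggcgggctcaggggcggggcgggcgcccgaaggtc
The Egln3 window held 1 core, Ankrd37 4, Ldha 7 and Pgk1 2. The Ldha window carried CACGTG at more than one place, and the Egln3 window held its single core at its far upstream end. Among the other genes, Bnip3 had 5 cores, Slc2a1 2 and Hk2 2, and the window with none was the first of a pair for Vegfa.

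Against vehicle, AP5 divided these genes. Ndrg1, a stress-responsive gene raised by low oxygen in many cell types, rose, whereas Egln3, an oxygen-sensing prolyl hydroxylase that is itself a HIF target, and Ankrd37, an ankyrin repeat protein gene induced by HIF, fell. With slide as a fixed block none of the 3 passed, Ndrg1 gave a log2 fold change of 1.17 and Egln3 and Ankrd37 turned to 0.18 and 0.29, as described with the slides. The other 7, with the growth factor, the glucose transporter and the glycolytic enzymes among them, did not pass the test. The count was 3 of 10, 1 higher and 2 lower, where 6.12% of all genes tested passed in either direction, 2.53% higher and 3.59% lower. The 10 genes were chosen with earlier results of these data known, so this count is a description and not a test of the list. The median log2 fold change was -0.09 over the 10 genes and -0.01 over all genes tested. The test was limma across all genes and all 20 arrays with Benjamini-Hochberg adjustment, two-sided, at an adjusted p under 0.05. That AP5 had acted was seen in Arc, a gene driven by synaptic activity, which was lower in AP5 by a log2 fold change of -2.65 (adjusted p = 2.71e-11), and of -2.88 with slide as a fixed block (adjusted p = 0.00290).

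Against the universal reference, every one of these genes except Pfkfb3 had ratios below 0 on all 20 arrays. Ndrg1 was read by 1 probe (build mm7, chr15:67013174-67013233, placed by the array's annotation). Its log2 ratios were -5.75, -5.20, -5.26, -5.34 and -5.36 on AP5 arrays 1 to 5, against -6.10, -6.04, -6.22, -5.95 and -5.64 on control arrays 1 to 5. AP5 arrays 2 to 5 lay above every control array, and AP5 array 1 lay below control array 5, so the groups overlapped by that pair. The ratios were -6.03, -6.07, -6.05, -6.35 and -5.89 on the NVP arrays and -5.76, -6.51, -6.15, -6.14 and -5.79 on the Ro25 arrays. Every AP5 array was above every NVP and every Ro25 array. The AP5 mean was -5.38 ± 0.22 and the control mean -5.99 ± 0.22 (SD, n = 5 each), a log2 fold change of 0.61 (SE 0.138, 95% interval 0.32 to 0.90), or 1.52-fold, with a limma adjusted p of 0.0102.

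Egln3 also had 1 probe (mm7, chr12:52198570-52198629). Its log2 ratios were -3.83, -3.62, -3.87, -3.97 and -3.55 with AP5, against -3.41, -3.48, -3.45, -3.06 and -2.92 with vehicle. All AP5 arrays were below all control arrays, and Egln3 was the only one of the 10 genes for which these groups did not overlap, a separation that 6.42% of all genes tested showed in either direction. On NVP arrays it read -3.15, -3.45, -3.39, -3.48 and -3.11, all above the AP5 arrays. On Ro25 arrays it read -3.14, -3.58, -3.46, -3.49 and -3.03, and here Ro25 array 2 reached into the AP5 range. The AP5 mean was -3.77 ± 0.18 and the control mean -3.26 ± 0.26 (SD, n = 5 each), a log2 fold change of -0.50 (SE 0.129, 95% interval -0.77 to -0.23, limma adjusted p = 0.0216).

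Ankrd37 (1 probe, mm7, chr8:44774913-44774972) read -2.38, -1.69, -2.09, -2.49 and -1.81 with AP5, against -1.52, -1.48, -1.90, -0.99 and -1.09 with vehicle. AP5 arrays 2 and 5 lay above control array 3, the lowest of the controls, so the groups overlapped. It read -1.18, -1.68, -1.86, -1.88 and -1.19 with NVP and -1.24, -1.78, -1.32, -1.51 and -1.20 with Ro25. Both of these groups overlapped AP5 at its upper end. The AP5 mean was -2.09 ± 0.35 and the control mean -1.40 ± 0.37 (SD, n = 5 each), a log2 fold change of -0.69 (SE 0.192, 95% interval -1.10 to -0.29, limma adjusted p = 0.0346).

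The firmness of these calls differed. When each AP5 or control array was left out in turn, Ndrg1 passed in 10 of 10 fits, with log2 fold changes of 0.55 to 0.70 and adjusted p-values of 0.00315 to 0.0308. Egln3 passed in 6 of 10: without AP5 array 3, AP5 array 4, control array 4 or control array 5 its adjusted p was 0.0558, 0.0659, 0.0697 and 0.0666, in that order, with log2 fold changes between -0.48 and -0.42. Ankrd37 passed in 3 of 10, those without AP5 array 2, AP5 array 5 or control array 3, and its adjusted p over the 10 fits ranged from 0.0129 to 0.110 with log2 fold changes of -0.82 to -0.59.

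**Figure D1:**
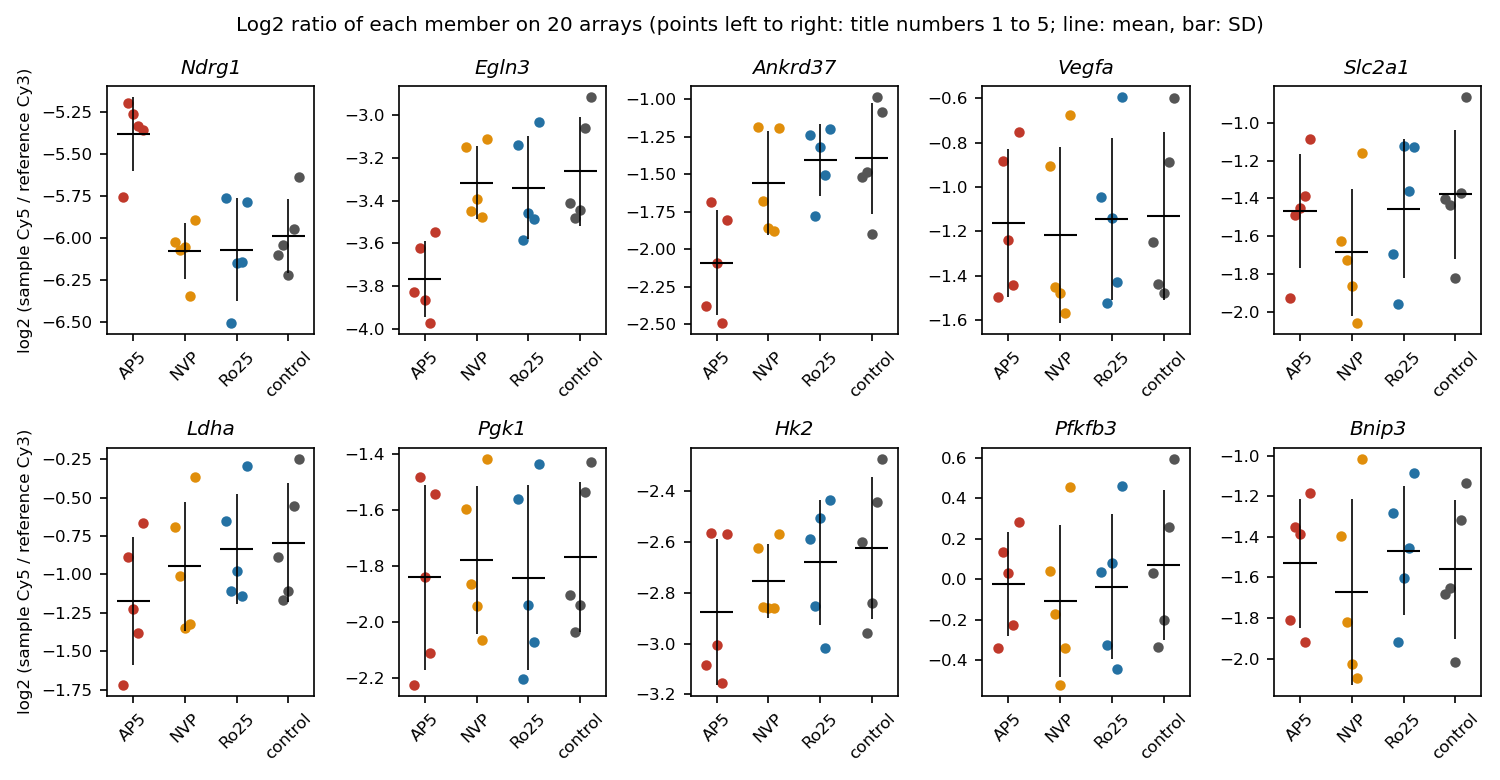
Log2 ratio of sample Cy5 to reference Cy3 (y axis, own scale in each panel) for the 10 genes on 20 arrays, by group (x axis); points are arrays, ordered left to right by the number in their title, horizontal lines group means and vertical bars SD. AP5 points lie high for Ndrg1 and low for Egln3 and Ankrd37, and in most panels the rightmost point of a group, array 5, is the highest.

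Vegfa, which encodes the growth factor that draws in blood vessels, did not pass in AP5. On its brightest probe it read -1.50, -0.88, -1.24, -1.44 and -0.75 with AP5, against -1.25, -1.44, -1.48, -0.89 and -0.60 with vehicle, and the groups covered nearly the same range. Its log2 fold change was -0.03 (95% interval -0.48 to 0.41, limma adjusted p = 0.969). The other Vegfa probes gave -0.15 and -0.04, so all 3 lay near 0.

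Slc2a1, the glucose transporter of the blood-brain barrier and of glia, had an AP5 mean of -1.47 ± 0.30 and a control mean of -1.38 ± 0.34 (SD, n = 5 each). The log2 fold change was -0.09 (95% interval -0.50 to 0.32). Hk2, the hexokinase that traps glucose in the cell, read between -3.15 and -2.57 with AP5, against -2.96 and -2.27 with vehicle, a log2 fold change of -0.25 (95% interval -0.56 to 0.05, limma adjusted p = 0.406). The AP5 and control ranges of both genes overlapped over most of their length.

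Pfkfb3, whose product makes the activator of phosphofructokinase, had a log2 fold change of -0.09 (95% interval -0.51 to 0.33) on its brightest probe, and the dim probes gave -0.07 and 0.02. Pgk1, phosphoglycerate kinase, gave -0.07 (95% interval -0.44 to 0.29) on the probe used and -0.03 on the other. Neither gene passed the test, and the probes of each were alike in lying near 0.

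Ldha, the lactate dehydrogenase subunit that favours making lactate, had the most negative value among the 7 genes that did not pass. It read -1.72, -0.88, -1.22, -1.38 and -0.66 with AP5, against -0.89, -1.17, -1.11, -0.56 and -0.25 with vehicle. AP5 arrays 1, 3 and 4 lay below all control arrays, and AP5 arrays 2 and 5 did not. The log2 fold change was -0.38 (95% interval -0.86 to 0.10, limma adjusted p = 0.436), and the other Ldha probe gave -0.40. Bnip3, a receptor that marks mitochondria for removal, read between -1.92 and -1.19 with AP5, against -2.02 and -1.14 with vehicle, a log2 fold change of 0.03 (95% interval -0.41 to 0.47). For Hk2, Pfkfb3 and Ldha the 95% interval includes a fall of the size seen in Egln3. Such a fall was thus neither shown nor excluded for these genes. The interval of Slc2a1 ended just short of that size, at -0.500 against -0.504 for Egln3.

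With NVP, none of the 10 genes passed, and none of all 19344 genes did (0% by limma, with 1138 genes at an unadjusted p under 0.05). All 10 log2 fold changes were negative, between -0.31 for Slc2a1 (95% interval -0.72 to 0.10) and -0.01 for Pgk1, with adjusted p-values of 0.954 to 0.999. Of the 10 NVP values, 8 were positive with slide as a fixed block, the values lay between -0.06 for Hk2 and 0.80 for Bnip3, and none passed (lowest adjusted p = 0.759). With Ro25, none of the 10 passed, where 0.0155% of all genes, 3 in number, did. The log2 fold changes lay between -0.11 for Pfkfb3 and 0.09 for Bnip3 (95% interval -0.35 to 0.53), and with slide as a fixed block all 10 were positive, from 0.16 to 0.74, with none passing (lowest adjusted p = 0.622). One of the 3 genes was Npas4, a transcription factor gene driven by neuronal activity, which fell with Ro25 at -0.68 (adjusted p = 0.0473) and did not pass with slide as a fixed block (-0.86, adjusted p = 0.576). Ndrg1, Egln3 and Ankrd37 gave -0.09, -0.05 and -0.16 with NVP, and -0.08, -0.08 and -0.01 with Ro25. All comparisons with vehicle share the control arrays.

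**Figure D2:**
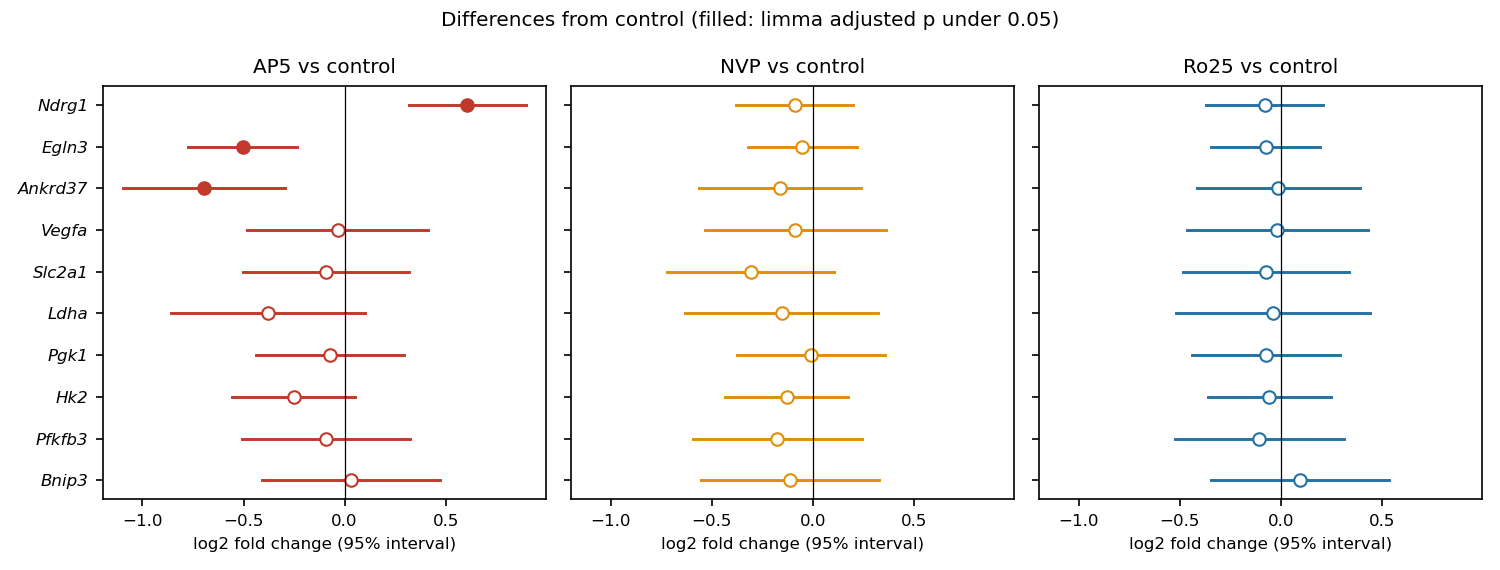
Log2 fold change of the 10 genes against control (x axis) for AP5, NVP and Ro25, with 95% intervals from limma; filled points have an adjusted p under 0.05. The filled points are Ndrg1 at 0.61, Egln3 at -0.50 and Ankrd37 at -0.69 with AP5, and NVP and Ro25 have none.

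Set directly against the other antagonists, Ndrg1 was again higher with AP5: its log2 fold change was 0.69 over NVP (SE 0.138, limma adjusted p = 0.00398) and 0.69 over Ro25 (adjusted p = 0.00643). Egln3 was lower with AP5 than with NVP, by a log2 fold change of -0.45 (SE 0.129, adjusted p = 0.0420), and gave -0.43 against Ro25, which did not pass (adjusted p = 0.0836). Ankrd37 passed neither, at -0.53 against NVP (adjusted p = 0.121) and -0.68 against Ro25 (adjusted p = 0.0590). So 2 of 10 passed between AP5 and NVP, where 5.78% of all genes did, and 1 of 10 between AP5 and Ro25, where 3.1% did. The arrays of the groups did not overlap for the same 2 genes between AP5 and NVP, as for 6.95% of all genes, and for Ndrg1 between AP5 and Ro25, as for 3.94% of all genes. Between NVP and Ro25, none of the 10 and none of all genes passed (0% by limma, with 1144 genes at an unadjusted p under 0.05). Ndrg1 with slide as a fixed block gave 0.73 over NVP (adjusted p = 0.0636) and 0.85 over Ro25 (adjusted p = 0.0405), and Egln3 gave -0.24 against NVP (adjusted p = 0.601). The Egln3 call between AP5 and NVP was lost when any of AP5 arrays 1, 3 or 4 or any of the 5 NVP arrays was left out. The doses differed between the compounds, and 1 dose and 1 time of each were measured.

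Within groups, the 10 genes varied together. After each gene's group mean was taken off, all 45 pairs of genes correlated positively over the 20 arrays, with Pearson's r between 0.59 and 0.97 (median 0.86) and Spearman's rho between 0.54 and 0.95 (median 0.81). These are descriptions over arrays that share a reference, a labelling and a scan. Vegfa had the highest mean correlation with the rest, 0.90. Its deviations followed those of Ldha at r = 0.97, which 0.0258% of all genes reached, and those of Ndrg1 at r = 0.76, which 4.00% of all genes reached. The genes thus moved in the same direction from array to array, including Ndrg1, Egln3 and Ankrd37, whose differences between AP5 and control had opposite signs.

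The size of this shared variation can be set beside the AP5 differences. AP5 array 5, NVP array 5, Ro25 array 5 and control array 5 were each the highest of their group, with a median deviation over the 10 genes of 0.31, 0.45, 0.35 and 0.39 log2 units, and all 10 genes above the group mean on each. The lowest were AP5 array 1 at -0.33, NVP array 4 at -0.30, Ro25 array 2 at -0.37 and control array 3 at -0.29, and on these none of the 10 genes was above its group mean. Without the 4 arrays numbered 5, an alternative added after the values were seen, all pairs stayed positive, with r between 0.18 and 0.95 and a median of 0.80. In that subset Ndrg1 gave a log2 fold change of 0.69 between AP5 and control (limma adjusted p = 0.0101), Egln3 -0.47 (adjusted p = 0.0299) and Ankrd37 -0.69 (adjusted p = 0.0789).

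Repeated spots on one array differed far less. The Pgk1 probe was printed 10 times on each array, and its log2 ratios within an array had an SD of 0.0245 to 0.0820 (median 0.0388), against 0.264 to 0.331 between arrays of a group. A Vegfa probe with 10 spots had 0.0390 to 0.107 within an array, against 0.380 to 0.405 between arrays. The share of sample spots well above background ran from 58.6% to 69.3% over the arrays. This share and the marker means below were also set as deviations from their group means. The shared deviation followed that of the share (r = 0.73, n = 20). It also followed that of the mean log2 ratio of the fibroblast markers (r = 0.63) and of the astrocyte markers (r = 0.60), and less that of the oligodendrocyte (r = 0.23), neuron (r = 0.18), microglia (r = -0.03) and endothelial markers (r = -0.06). The part of these measures in the shared deviation was not tested.

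**Figure D3:**
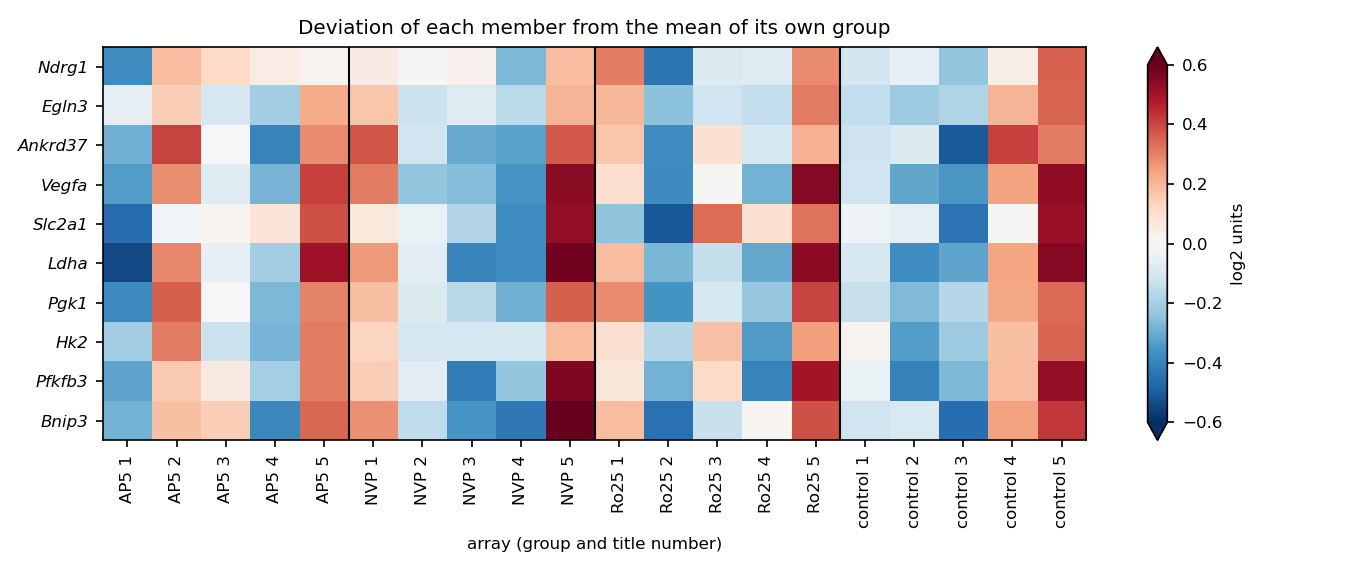
Deviation of each gene (rows) from the mean of its own group on each of the 20 arrays (columns), in log2 units by colour, red above and blue below the group mean, with colours saturating at 0.6 on either side. The arrays numbered 5 are red in all 10 genes and AP5 array 1, NVP array 4, Ro25 array 2 and control array 3 have no gene above its group mean.

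The arrays lay on 7 slides, and the slides did not spread the groups evenly. Control arrays 1, 2, 4 and 5 had a slide to themselves, and control array 3, low on all 10 genes, shared a slide with Ro25 arrays 1, 4 and 5, so every comparison with vehicle within slides rests on that array. With slide as a fixed block, none of the 10 genes passed in AP5 against control, where 0.212% of all genes, 41 in number, did by limma. Ndrg1 then gave a log2 fold change of 1.17 (SE 0.260, adjusted p = 0.103), whereas Egln3 gave 0.18 (SE 0.308, adjusted p = 0.786) and Ankrd37 0.29 (SE 0.385, adjusted p = 0.715), both with the sign turned. Under this fit all 10 values were positive, from 0.11 for Hk2 to 1.30 for Bnip3 (SE 0.399, adjusted p = 0.182). Slide and treatment are therefore only partly separable here.

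Ndrg1 was higher with AP5 on both slides that held AP5 beside another group. On the slide with AP5 array 5 and NVP arrays 2, 3 and 4, the difference of AP5 minus NVP was 0.80 for Ndrg1, -0.11 for Egln3 and 0.00035 for Ankrd37, and the 7 other genes were higher with AP5 by 0.29 to 0.80. Bnip3 and Slc2a1 also gave 0.80 there, so Ndrg1 did not stand apart. This slide set the array with the highest shared deviation of the AP5 group (0.31) against NVP arrays with shared deviations of -0.09, -0.22 and -0.30. On the slide with AP5 array 1 and Ro25 array 2, the difference of AP5 minus Ro25 was 0.75 for Ndrg1, -0.24 for Egln3 and -0.60 for Ankrd37, and the 7 other genes lay between -0.61 for Ldha and 0.11 for Bnip3. On the slide with control array 3, the difference of Ro25 minus control was 0.32 for Ndrg1, 0.23 for Egln3 and 0.59 for Ankrd37. On the slide with NVP arrays 1 and 5 and Ro25 array 3, NVP minus Ro25 was 0.19 for Ndrg1, 0.33 for Egln3 and 0.13 for Ankrd37. These are single arrays or means of up to 3, with no test. The scan day was the first for 17 arrays, and on those alone Ndrg1 passed by limma (log2 fold change 0.69, adjusted p = 0.00431). Egln3 gave -0.45 there (adjusted p = 0.108) and Ankrd37 -0.60 (adjusted p = 0.152). That fit lacked AP5 arrays 1 and 3 and Ro25 array 2, so AP5 had fewer arrays than control.

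**Figure D4:**
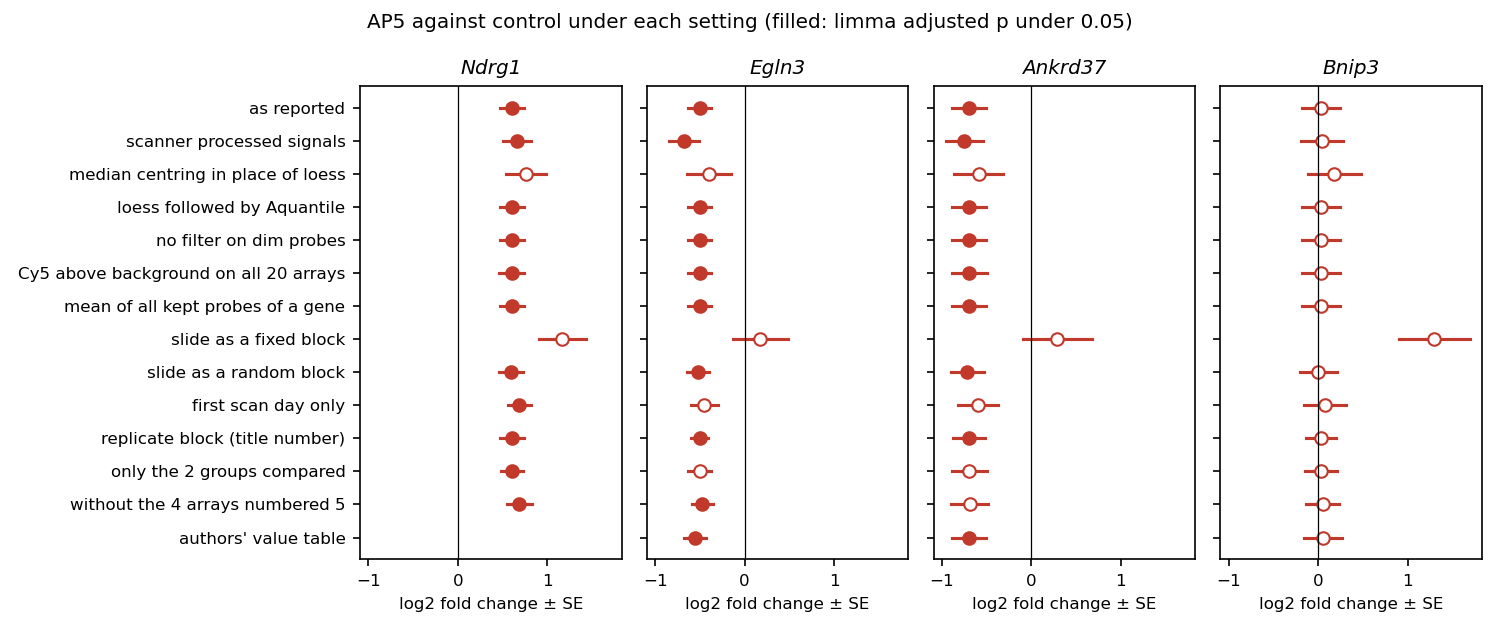
Log2 fold change of AP5 against control (x axis, ± SE) for Ndrg1, Egln3, Ankrd37 and Bnip3 under each processing setting (rows); filled points have a limma adjusted p under 0.05, and Ndrg1 has no point for the authors' value table. With slide as a fixed block Egln3 and Ankrd37 lie above 0, at 0.18 and 0.29, and Bnip3 moves to 1.30.

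Apart from Egln3, the genes listed for the machinery upstream did not pass the test in AP5. These values are of RNA and not of protein. Of 13 genes for HIF subunits and oxygen sensing, 0 passed by limma in AP5 against control (lowest adjusted p = 0.0637, median log2 fold change 0.03). Hif1a, the oxygen-regulated alpha subunit, gave -0.02 (adjusted p = 0.950), Epas1, the related alpha subunit, gave -0.00306 and was above background on 8 arrays, and Egln1, the main oxygen-sensing hydroxylase, gave 0.05 (adjusted p = 0.918). The 15 other glycolytic enzymes had 0 that passed (median -0.00494), as had 13 regulators of glycolysis (median 0.10, lowest adjusted p = 0.0517) and 6 mitophagy genes (median 0.15). Over all 8 lists of other pathway genes, 98 genes were tested and 6 rose and 2 fell, beside a background of 6.12% in either direction, with a median log2 fold change of 0.05.

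Among 32 other HIF target genes tested of 35 listed, 4 rose and 1 fell in AP5, where 2.53% of all genes tested rose and 3.59% fell. The one that fell was Tfrc, the transferrin receptor, at -0.54 (limma adjusted p = 3.97e-06). Its log2 ratios were -1.66 to -1.52 with AP5, against -1.18 to -0.98 with vehicle, and all AP5 arrays were below all control arrays. Cxcr4, a chemokine receptor, rose by 0.55 (adjusted p = 0.00709) and Rora, a nuclear receptor, by 0.50 (adjusted p = 0.00991). Plod2, a collagen lysyl hydroxylase gene, rose by 0.23 (adjusted p = 0.0201), and Mxi1 was the other that rose.

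The counts of the next 3 lists stand beside the 6.12% of all genes tested that passed in either direction. Of 8 other glucose and lactate transporters, 1 passed: Slc16a1, a carrier that moves lactate across the membrane, rose by a log2 fold change of 0.66 with AP5 (SE 0.0890, adjusted p = 8.51e-05). Its log2 ratios were -0.81 to -0.56 with AP5, against -1.49 to -1.06 with vehicle, with no overlap. Of 8 genes for other VEGF ligands and receptors, Kdr, the main VEGF receptor, passed and rose by 0.73 (adjusted p = 0.0247), reading 1.73 to 2.42 with AP5, against 1.09 to 1.87 with vehicle, ranges that overlapped. Of the 3 relatives of Ndrg1, Ndrg3 fell, at -0.41 (adjusted p = 0.0185), opposite in sign to Ndrg1, with 1.78 to 2.11 on AP5 arrays against 2.15 to 2.58 on control arrays. With slide as a fixed block none of the genes named from these lists passed, and their sizes went different ways. Slc16a1 gave 0.81, Tfrc -0.60, Ndrg3 -0.58, Plod2 0.38, Mxi1 0.33 and Rora 0.80, all larger than without the block and in the same direction, with adjusted p-values of 0.148 to 0.308. Cxcr4 gave 0.18 (adjusted p = 0.763) and Kdr turned to -0.34 (adjusted p = 0.697).

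**Figure D5:**
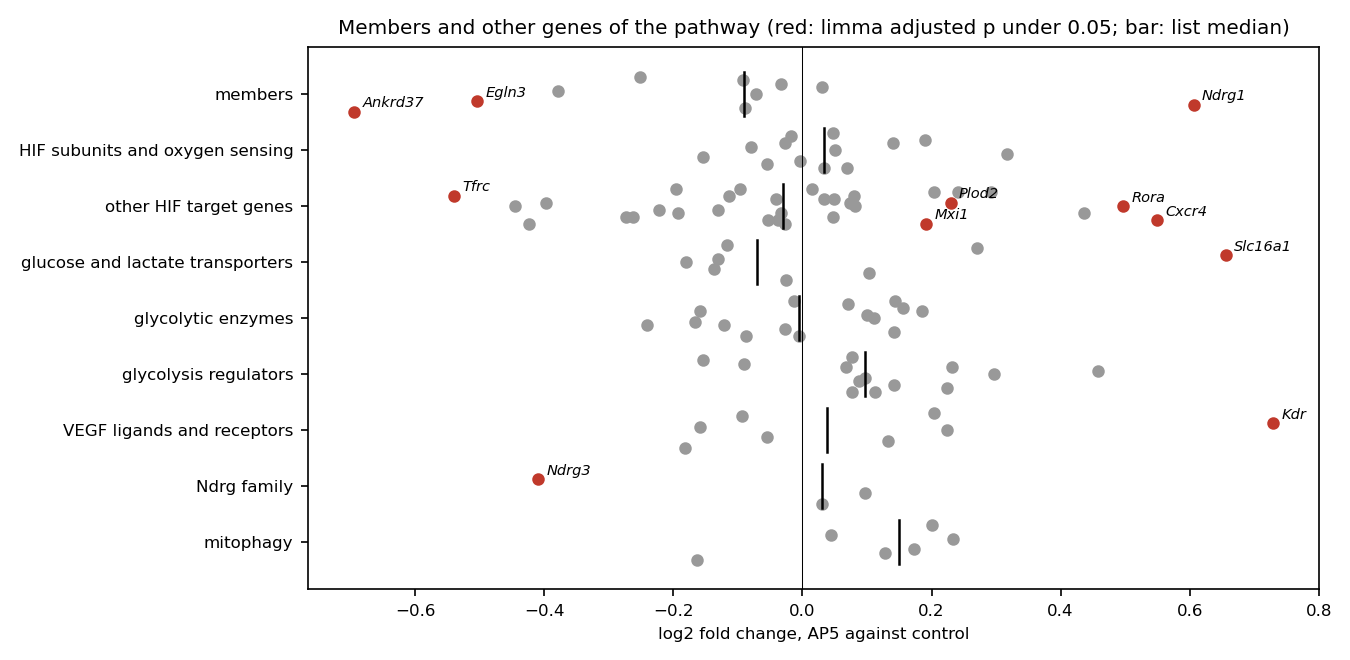
Log2 fold change of AP5 against control (x axis) for the 10 genes (top row, labelled members) and for 8 lists of other pathway genes; each point is a gene, red where the limma adjusted p is under 0.05 and named, vertical bars are list medians, and height within a row has no meaning. Red points lie on both sides of 0, from Ankrd37 at -0.69 to Kdr at 0.73, and rows such as the glycolytic enzymes have none.

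The genes most like each of the called members over the 20 arrays, by Pearson's r, are given as a description. For Ndrg1 they were Cdk18 (r = 0.93), Nek6 (r = 0.92) and Asl (r = 0.90). For Egln3 they were 2610005L07Rik (r = 0.94), Mthfd1l (r = 0.94) and S100a10 (r = 0.92), and for Ankrd37 they were Pthlh (r = 0.94), Mmel1 (r = 0.93) and Ramp3 (r = 0.92). None of these genes was listed for more than 1 of the 3. Pthlh, the parathyroid hormone-related peptide gene, gave a log2 fold change of -2.20 in AP5 against control (limma adjusted p = 0.00444), more than that of Ankrd37. These genes were picked over all 20 arrays, AP5 and control arrays included. A difference in the direction of the called member is therefore partly built into the choice and lends it no support.

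Markers were checked against the label of neurons. All 12 neuron markers and all 15 astrocyte markers were above background on all 20 arrays, as were 13 of 18 oligodendrocyte, 7 of 12 microglia, 3 of 10 endothelial and 9 of 10 fibroblast markers, so glial markers were measured beside neuronal ones. Of the 10 endothelial markers, 3 (Pecam1, Cdh5 and Tie1) were not well above background on any array. The other 7, with Flt1, Kdr and Emcn above background on all 20 arrays, passed the filter on dim spots. In AP5 against control, 0 of 12 neuron, 0 of 15 astrocyte and 0 of 14 oligodendrocyte markers tested passed by limma, with 1 of 8 microglia markers (Csf1r, higher), 1 of 7 endothelial markers (Kdr, higher) and 1 of 10 fibroblast markers (Col1a2, lower) passing. Of all genes tested, 6.12% passed in either direction, 2.53% higher and 3.59% lower. The mean log2 ratio of the astrocyte markers was 2.76 to 4.08 over the AP5 arrays, against 3.25 to 3.75 over the control arrays, and that of the neuron markers 4.16 to 4.90 over the AP5 arrays, against 4.64 to 4.97 over the control arrays. Their part in the differences of the 10 genes was not tested.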

How the data were processed

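Total RNA of 20 samples was hybridised in Cy5 with a universal reference in Cy3. The deposited scanner files hold spot intensity for both channels, for which the file headers name Agilent Feature Extraction 10.7.3.1 and the submitters' processing notes version 11.0. Their log10 ratio column, put on the log2 scale, served as the processed-signal alternative and to check the deposited value table. The authors also deposited a table of log2 values for 20674 probes, with 9 probes of the 10 genes and none for Ndrg1. Over 11134 probes it correlated with that ratio at r = 0.987 to 0.991 with slopes of 0.834 to 0.858 and column medians of 0.0302 to 0.0626. It therefore runs in the direction of sample over reference on a log2 scale, and its normalization and centring are unknown. It served as an alternative.

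Backgrounds were corrected with normexp (offset 50) and arrays normalized by loess in limma 3.58.1 (R 4.3.3), and spots of a probe were averaged. Probes well above background in Cy5 on at least 5 arrays were kept, 28498 in all. A gene was read from its brightest probe, and symbols were updated through RefSeq. One mean per group was fitted over 20 arrays with eBayes, two-sided, with Benjamini-Hochberg adjustment over 19344 genes in each comparison. The number of arrays limits the precision.

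The genes and lists were chosen with earlier results of these data known. The text names all 10 genes, up to 4 genes of each other list with the lowest adjusted p among those that passed in AP5 against control, Hif1a, Epas1 and Egln1, any list gene that passed with NVP or Ro25, and the 3 genes nearest to each called member. Mxi1 lies outside this rule and was named after its values were seen. Of the activity-regulated genes, used only to check the treatment, Arc and Npas4 are named. One gene of the list of other HIF targets is not reported here and is left out of the lists' counts, medians and figure. Alternatives covered background correction, normalization, the dim-probe filter, the probe rule, slide, scan day, title number, the samples in the fit and each array left out.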

Additional observations from a re-analysis of the deposited data

Results flagged for a closer look

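Differences between antagonists under the same comparison with vehicle were tested directly. Ndrg1 differed between AP5 and NVP by a log2 fold change of 0.69 and between AP5 and Ro25 by 0.69. All 5 AP5 arrays lay above all 5 arrays of the other antagonist in each case. For Ro25 the nearest pair almost met, at -5.755 on AP5 array 1 and -5.763 on Ro25 array 1. Egln3 differed between AP5 and NVP by -0.45, with all 5 AP5 arrays below all 5 NVP arrays. Of all genes tested, 6.95% were separated in either direction between AP5 and NVP and 3.94% between AP5 and Ro25. With slide as a fixed block, Ndrg1 gave 0.73 over NVP (limma adjusted p = 0.0636) and 0.85 over Ro25 (adjusted p = 0.0405). Under that fit Egln3 gave -0.24 against NVP (adjusted p = 0.601). Of the 40 sets of 5 arrays, 1 for each gene and group, none had a single array far from the rest by Dixon's test.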

How the results depend on the processing

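Between AP5 and control, 3 of the 10 genes passed, and this count fell to 0 with median centring in place of loess and with slide as a fixed block, and to 1 on the first scan day only and with only the 2 groups compared in the fit. Leaving out single arrays gave 1 to 3. With slide as a fixed block Egln3 turned to 0.18 and Ankrd37 to 0.29, and the probes that passed went to 0, against 3 as reported. Median centring left Ndrg1 at 0.76 (adjusted p = 0.173), Egln3 at -0.40 (adjusted p = 0.871) and Ankrd37 at -0.59 (adjusted p = 0.676). Over 22 alternatives Ndrg1 stayed past the threshold in 20, over 23 Egln3 in 15 and Ankrd37 in 11. These counts are not of independent checks. For each gene 10 of the alternatives left out a single array and reused the rest. Each of these genes had 1 probe, so averaging probes and changing the dim-probe filter left its fold change as it was. A further normalization between arrays after loess (Aquantile) adjusts average intensities and leaves log ratios as they are. It could only return the same values, so it is no check, although the counts above include it. Between AP5 and NVP the 2 genes became 0 with median centring and slide as a fixed block, and 1 with the authors' value table (which has no Ndrg1), with no filter on dim probes and on the first scan day, and 1 to 2 with single arrays left out. Between AP5 and Ro25 the 1 gene became 0 with median centring and with only the 2 groups compared, and 1 to 2 with single arrays left out, where 2 was reached without AP5 array 2 or Ro25 array 2. None of the 10 genes passed with NVP or Ro25 against control, or between NVP and Ro25, under any alternative. The 1183 genes that passed in AP5 against control became 165 with median centring (66 higher, 99 lower), 41 with slide as a fixed block (6 higher, 35 lower) and 775 with only the 2 groups compared (301 higher, 474 lower), and 830 to 1216 with single arrays left out. The 3 genes that passed in Ro25 against control became 0 with scanner processed signals, median centring, no filter, slide as a fixed block, the first scan day, only the 2 groups compared and without the 4 arrays numbered 5, 1 with Cy5 above background on all 20 arrays, and 0 to 2 with single arrays left out. A fold change that passed in neither fit changed sign in 90 combinations of a value and an alternative, 45 of them with a single array left out and 23 with slide as a fixed block. The causes were not tested.

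With title number as a replicate block, 3 genes passed in AP5 against control (Ndrg1 0.61, Egln3 -0.50, Ankrd37 -0.69) and 3 passed between AP5 and Ro25, 1 higher and 2 lower, against 1 as reported. Each group has 1 array of each number, so this block could not change a fold change, only its spread and p-value. Same-numbered arrays did not deviate together for every number: all 6 pairs numbered 5 correlated positively, at 0.568 to 0.763, whereas pairs numbered 1 to 4 ranged from -0.447 to 0.506, and 4 of 20 arrays correlated best with an array of their own number.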
